A study of Sus scrofa with 40 samples.

Results

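The aquaporins are membrane channels for water, and 9 members of the family were followed here through warm ischemia and cold storage of pig kidneys: AQP1, AQP2, AQP3, AQP4, AQP5, AQP6, AQP7, AQP9 and AQP11. Members were the non-control rows of the array whose gene name is one of these symbols or whose description gives the symbol in brackets. They came to 15 rows (probes) under 12 identifiers, of 43803 rows and 35955 identifiers on the array. Total RNA of kidney biopsies from 3-month-old Large White pigs was measured on 40 single-color arrays, 5 in each of 8 groups, and the 40 samples came from 15 kidneys of brother pigs. In the control group (Ctl) the kidney was removed, sampled and frozen at once, and in the warm ischemia group (WI) it was clamped for 60 min at 37 °C before sampling. Kidneys of the cold storage groups had the same 60 min of warm ischemia, were then flushed with University of Wisconsin solution and stored in it at 4 °C; 1 set of 5 kidneys gave both the 6 h (WI+CS6h) and the 24 h (WI+CS24h) biopsies. Each condition was sampled in cortex (C) and in the corticomedullary junction (CMJ). Every sample was taken before any return of blood flow, so the groups model the kidney up to the end of storage and not after grafting.

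Aquaporins sit in the membrane as tetramers, and each subunit forms its own pore. AQP1 carries water through the proximal tubule and the thin descending limb, AQP2 is moved into the apical membrane of collecting duct principal cells under vasopressin, and AQP3 and AQP4 let the water leave these cells on the basolateral side. AQP3, AQP7 and AQP9 are aquaglyceroporins that carry glycerol as well, AQP6 lies in vesicles of intercalated cells, AQP11 in the endoplasmic reticulum of the proximal tubule, and AQP5 is best known from secretory glands.

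Values are log2 of the background-subtracted signal after quantile normalization of the 40 arrays, and a level of one probe says nothing about the level of another. Differences are on the log2 scale, with the first group minus the second. Each was tested with limma over all identifiers, and a difference was called where the adjusted p was under 0.05 and the difference at least 0.5. In bulk tissue, fewer cells of a type and less RNA per cell cannot be told apart.

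The findings below turn on 6 probes, shown here because those of AQP3 moved together, those of AQP2 did not, and AQP6 and AQP7 had 1 probe each. They are 60 bases long and are written 5′ to 3′ as the array files give them:
AQP3 probe A_72_P088641: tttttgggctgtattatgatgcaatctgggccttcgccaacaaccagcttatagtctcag
AQP3 probe A_72_P442022: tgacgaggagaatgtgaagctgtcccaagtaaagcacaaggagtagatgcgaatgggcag
AQP7 probe A_72_P106716: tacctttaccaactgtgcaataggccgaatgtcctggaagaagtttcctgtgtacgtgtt
AQP6 probe A_72_P442116: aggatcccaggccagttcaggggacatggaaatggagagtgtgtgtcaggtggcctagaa
AQP2 probe A_72_P414263: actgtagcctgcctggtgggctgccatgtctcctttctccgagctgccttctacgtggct
AQP2 probe A_72_P705562: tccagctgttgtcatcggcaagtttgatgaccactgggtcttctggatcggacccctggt
According to the array files the AQP3 probes start at bases 356 and 828 of NM_001110172, that of AQP7 at base 345 of NM_001113438, that of AQP6 at base 788 of NM_001128467, and those of AQP2 at bases 215 and 571 of NM_001128476. Among all 105 pairs of the 15 aquaporin probes, the longest run of bases shared by a pair was 8. The files map none of the 15 probes to the genome. In the RefSeq gene order of Sscrofa11.1, AQP3 and AQP7 are neighbors with 0 genes between them, and AQP2, AQP5 and AQP6 follow each other in the same way.

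The arrays had 57.01% to 69.91% of their spots well above background, and the dimmest were WI+CS6h-C 5 (57.01%) and WI+CS6h-C 3 (57.23%). The labeled tissues were checked against markers: of 8 genes of the loop of Henle and medulla on the array, 5 were called higher in Ctl-CMJ than in Ctl-C, among them SLC12A1, the sodium-potassium-chloride cotransporter of the thick ascending limb, by 1.24 (SE 0.25). One signal of fat did not follow the labels: ADIPOQ (EF601160), which encodes adiponectin, was well above background on 3 of 40 arrays, WI-CMJ 1, 3 and 5. The AQP3 and AQP7 calls against WI-CMJ and the AQP7 difference between tissues are given with and without these 3 arrays, and other differences from WI-CMJ include them. Without them the calls over all identifiers went from 247 to 89 for WI-CMJ against Ctl-CMJ, from 1000 to 280 for 6 h against WI-CMJ, and from 1024 to 295 for 24 h against WI-CMJ, with 2 WI-CMJ arrays left. The 6 h and the 24 h comparisons share their WI or Ctl arrays and their stored kidneys, so that they are not independent of each other.

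Of the 12 aquaporin identifiers, 9 gave levels that could be compared, though that of AQP9 (ENSSSCT00000005078) averages in a dim probe. Its probe A_72_P321058 was well above background on 1 of 40 arrays, and A_72_P023416 on 38 of 40. AQP4 (NM_001110423) and AQP9 (NM_001112684) were well above background on 0 of 40 arrays, and the AQP1 probe of AK238030 was saturated on 39 of 40 arrays, so no fold is given for these. Over the 8 group means, AQP7 spanned 1.96, AQP6 1.11 and AQP3 1.06, with a within-group SD of 0.47, 0.33 and 0.30. AQP1 (NM_214454) spanned 0.19 with an SD of 0.35, AQP5 0.35 with 0.28 and AQP11 0.48 with 0.31. In order of level, a step between neighboring groups exceeded the larger of their SDs once each in AQP3 (from WI-C down to Ctl-C, 0.46), AQP6 (from Ctl-CMJ down to Ctl-C, 0.69) and AQP7 (from WI-CMJ down to Ctl-CMJ, 0.49), and in none of the 7 steps of the other 9 identifiers.

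**Figure D1:**
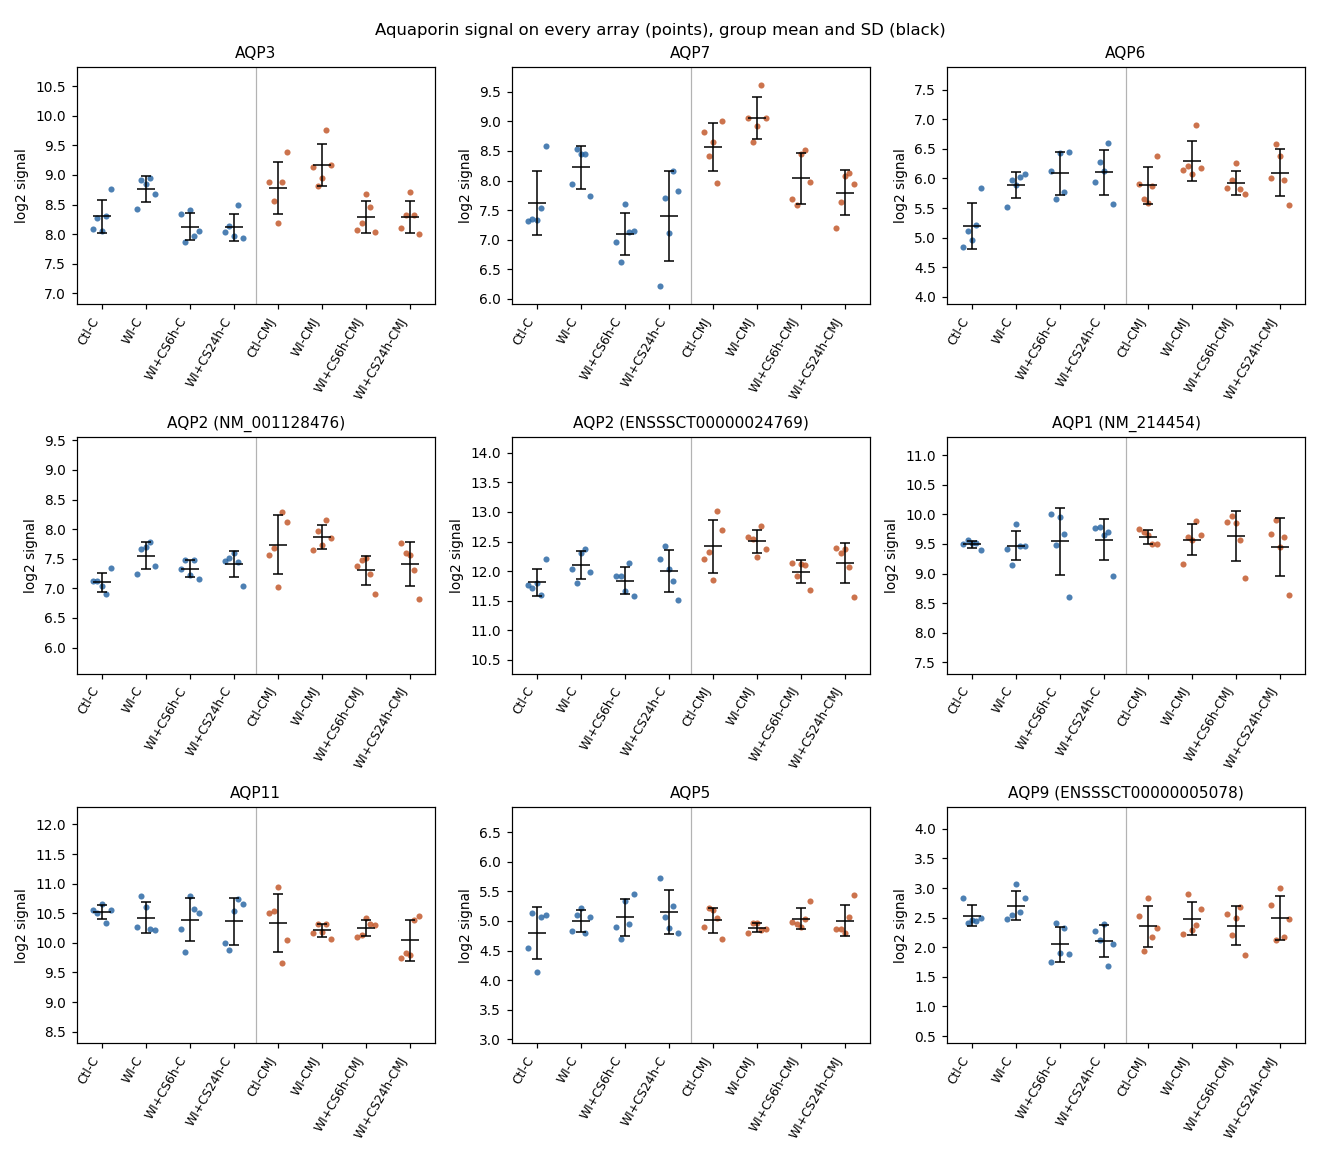
Log2 signal (vertical axis, 4 log2 units in each panel) of the 9 aquaporin identifiers that could be compared. The 8 groups are on the horizontal axis, with cortex in blue and CMJ in orange. AQP9 (ENSSSCT00000005078) averages in a probe well above background on 1 of 40 arrays. Points are arrays and black bars the group mean and SD (n = 5); AQP3 and AQP7 were highest after warm ischemia, at 9.17 and 9.06 in WI-CMJ, while AQP1 stayed between 9.45 and 9.64 in group mean.

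AQP3, the basolateral water and glycerol channel of principal cells, fell after cold storage relative to warm ischemia in both tissues. In CMJ it read 9.14, 8.82, 8.95, 9.76 and 9.17 on the WI-CMJ arrays, 8.07, 8.18, 8.67, 8.46 and 8.04 after 6 h, and 8.11, 8.32, 8.71, 8.32 and 8.00 after 24 h. All 5 arrays of each storage time lay below all 5 WI-CMJ arrays. The difference was -0.88 (SE 0.21) at 6 h and again -0.88 (SE 0.21) at 24 h, 1.84-fold lower at both times, with adjusted p = 0.0242 and 0.0245. In cortex it read 8.42, 8.91, 8.85, 8.95 and 8.67 in WI-C, 8.34, 7.87, 8.40, 7.96 and 8.06 in WI+CS6h-C, and 8.04, 8.14, 7.96, 8.49 and 7.93 in WI+CS24h-C. The 6 h arrays were all below WI-C, and at 24 h 1 array (8.49) reached above the lowest WI-C array. The cortical differences were -0.63 (SE 0.15, adjusted p = 0.0344) and -0.65 (SE 0.15, adjusted p = 0.0392). Against Ctl, AQP3 was not called in any comparison: it differed by 0.46 (SE 0.15) in WI-C, and by -0.49 (SE 0.21) in CMJ at both 6 h and 24 h. The WI-C difference had adjusted p = 0.66, and those in CMJ had 0.241 and 0.225.

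Both AQP3 probes gave the same picture. In CMJ, A_72_P088641 differed from WI by -0.88 and -0.91 and A_72_P442022 by -0.89 and -0.84 at 6 h and 24 h, all called. In cortex the values were -0.60 and -0.63 for A_72_P088641 (adjusted p = 0.0575 and 0.0561) and -0.67 at both times for A_72_P442022 (adjusted p = 0.014 and 0.0176). At 6 h in CMJ the call was lost without WI-CMJ 4 or 5 or WI+CS6h-CMJ 1, 2 or 5 (adjusted p of 0.0533 to 0.0627), and at 24 h without WI-CMJ 4 or 5 or WI+CS24h-CMJ 1 or 5 (0.0549 to 0.0655). In cortex at 6 h it was lost without WI-C 2, 3, 4 or 5 or WI+CS6h-C 2, 4 or 5 (0.0513 to 0.0925). At 24 h in cortex it was lost without Ctl-C 2 or 4, WI-C 2, 3, 4 or 5 or WI+CS24h-C 1, 2, 3 or 5 (0.0529 to 0.108). Without the 3 arrays with ADIPOQ signal the CMJ differences were -1.0 at both times with adjusted p = 0.17 and 0.16, from 2 WI-CMJ arrays. Within the 2 scan days the CMJ differences were -1.13 and -0.66 at 6 h and -0.90 and -0.84 at 24 h, and in cortex -0.59 and -0.68 at 6 h and -0.52 and -0.85 at 24 h. With the slide as a block the 4 calls were lost: the values were -0.89 and -0.80 in CMJ (adjusted p = 0.218 and 0.0759) and -0.79 and -0.62 in cortex (adjusted p = 0.397 and 0.243). The cortical calls were also lost with scaling to the 75th percentile (adjusted p = 0.0845 and 0.0904), with the replicate number as a block (0.0628 and 0.0748) and with quantile normalization within each group (-0.48, under the limit of 0.5, at 6 h, and -0.60 with adjusted p = 0.0548 at 24 h). That at 6 h was lost without the 2 dimmest arrays (-0.70, adjusted p = 0.0718), and with normexp background correction the cortical differences were -0.42 and -0.43, under the limit of 0.5. On slides holding both groups AQP3 was lower in 2 of 2 and 4 of 4 slides in CMJ and in 2 of 2 and 3 of 4 in cortex.

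AQP7, the glycerol channel of the last part of the proximal tubule and of adipocytes, fell after cold storage relative to warm ischemia in CMJ. It read 9.05, 8.65, 8.92, 9.61 and 9.05 in WI-CMJ, 7.68, 7.58, 8.44, 8.52 and 7.97 in WI+CS6h-CMJ, and 7.20, 7.64, 8.07, 8.12 and 7.94 in WI+CS24h-CMJ. All storage arrays lay below all WI-CMJ arrays. The difference was -1.02 (SE 0.24, adjusted p = 0.0224) at 6 h, 2.03-fold lower, and -1.26 (SE 0.24, adjusted p = 0.00535) at 24 h, 2.4-fold lower. Relative to Ctl-CMJ, which read 8.82, 8.42, 8.65, 7.96 and 9.0, the 24 h difference was -0.78 (SE 0.24) with adjusted p = 0.0711, and arrays of the 2 groups overlapped. It was called with dim identifiers left out (adjusted p = 0.0449) and without Ctl-CMJ 4 (-0.93, adjusted p = 0.0338), the Ctl-CMJ array at 7.96 that lay below 2 arrays of 24 h. In cortex AQP7 differed from WI-C by -1.13 (SE 0.32, adjusted p = 0.0753) at 6 h and by -0.82 (SE 0.32, adjusted p = 0.288) at 24 h, neither of them called; the 6 h difference was called without Ctl-C 5 or without WI+CS24h-C 1 (adjusted p = 0.0487 and 0.0312), with quantile normalization within each group (-1.02, adjusted p = 0.0425) and with the share of spots well above background as a covariate (-1.25, adjusted p = 0.0413), and its arrays did not overlap those of WI-C. The cortical arrays of 24 h spread from 6.21 to 8.16, and the SD of 0.76 was the highest of any group for this gene.

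The 24 h call of AQP7 in CMJ held in all 20 fits that left out 1 array, with adjusted p of at most 0.0166. That at 6 h was lost without WI-CMJ 4 or 5 or WI+CS6h-CMJ 1 or 2 (adjusted p of 0.0516 to 0.0613), and with the slide as a block (-1.13, adjusted p = 0.254). Within the 2 scan days the differences were -1.33 and -0.77 at 6 h and -1.22 and -1.33 at 24 h, and the gene was lower on 2 of 2 and 4 of 4 slides that held both groups. ADIPOQ (EF601160) read 6.23, 7.05 and 7.53 on WI-CMJ 1, 3 and 5, against 0.50 and 0.48 on WI-CMJ 2 and 4, and 0.39 to 0.87 on all other CMJ arrays. AQP7 did not follow that split: it read 9.05, 8.92 and 9.05 on the 3 arrays with the signal and 8.65 and 9.61 on the others. The mean log2 signal of the 8 adipocyte markers ranged from 4.88 to 6.18 in WI-CMJ. In the other CMJ groups it ranged from 4.86 to 5.35. Among these markers, WI-CMJ differed from Ctl-CMJ by 3.77 for ADIPOQ (EF601160), 0.51 for FABP4 and 0.48 for LPL, and by -0.14 for LEP. None of these differences was called. PLIN1, which coats lipid droplets, was well above background on only 1 array of the series, which was not a CMJ array. Without the 3 arrays AQP7 differed by -1.09 at 6 h and -1.34 at 24 h, with adjusted p = 0.199 and 0.0945.

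**Figure D2:**
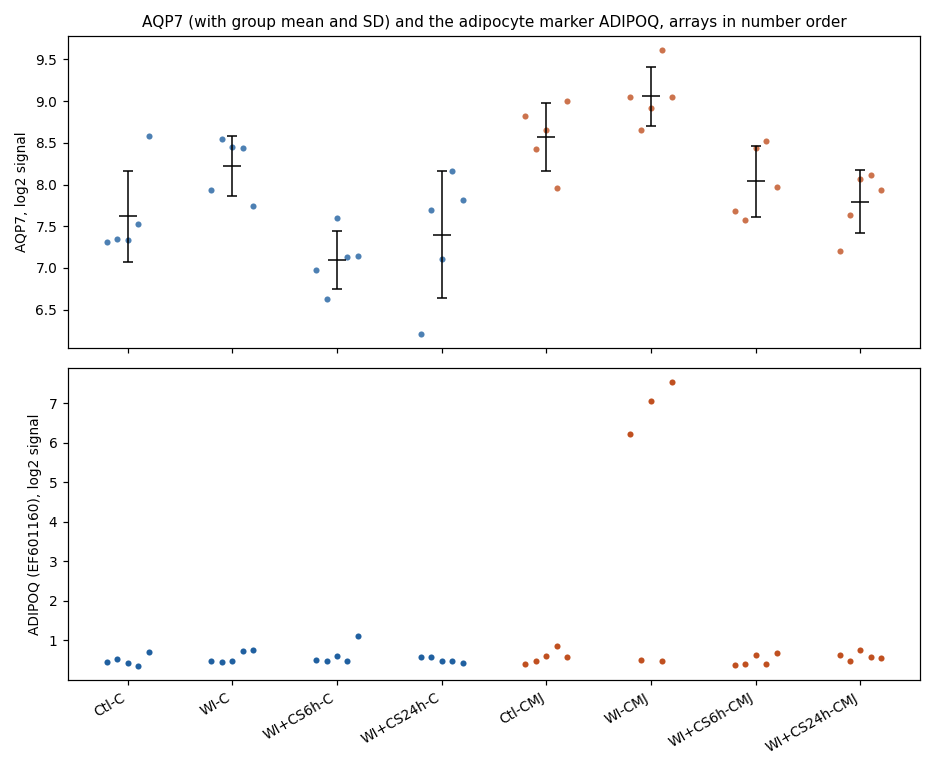
AQP7 (upper panel) and ADIPOQ, identifier EF601160 (lower panel), as log2 signal on every array in number order, by group (blue, cortex; orange, CMJ; black bars, group mean and SD of AQP7, n = 5). The 3 WI-CMJ arrays with ADIPOQ at 6.23 to 7.53 had AQP7 at 8.92 to 9.05, between those of the 2 other arrays of the group at 8.65 and 9.61.

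AQP6, an anion-permeable channel of intercalated cell vesicles, rose in cortex after cold storage relative to Ctl. It read 4.85, 5.11, 4.96, 5.22 and 5.84 in Ctl-C, 6.13, 5.65, 6.43, 5.77 and 6.44 in WI+CS6h-C, and 5.94, 6.28, 6.12, 6.60 and 5.57 in WI+CS24h-C. Only Ctl-C 5, at 5.84, reached into the range of the storage groups. The differences were 0.89 (SE 0.21, adjusted p = 0.0227) at 6 h and 0.91 (SE 0.21, adjusted p = 0.0251) at 24 h, 1.85-fold and 1.88-fold higher. WI-C lay in between at 5.52, 5.97, 5.89, 6.02 and 6.08, with a difference from Ctl-C of 0.70 (SE 0.21) and adjusted p = 0.582, and AQP6 differed from WI-C by 0.19 and 0.21 after storage. In CMJ the same gene was not called: it read 5.90, 5.66, 5.59, 5.88 and 6.38 in Ctl-CMJ, and differed from it by 0.42 (SE 0.20) in WI-CMJ, 0.05 at 6 h and 0.22 at 24 h. The difference of the 6 h effect between tissues was -0.84 (SE 0.29) with adjusted p = 0.836, which does not show that the cortical rise differed from CMJ.

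The 2 dimmest arrays of the series belong to WI+CS6h-C, where AQP6 read 6.43 and 6.44, the highest of that group. Without both, the 6 h difference was 0.65 with adjusted p = 0.205, and with the share of spots well above background as a covariate it was 0.57 with adjusted p = 0.0716. With normexp background correction the differences were 0.23 and 0.24, under the limit of 0.5, with adjusted p = 0.0245 and 0.0246. The 6 h call was lost without Ctl-C 1, 2 or 3 or WI+CS6h-C 1, 3 or 5 (adjusted p of 0.0562 to 0.0724), and the 24 h call without Ctl-C 1, 2, 3 or 4 or WI+CS24h-C 2 or 4 (0.0532 to 0.0816). With the slide as a block the 24 h difference was 1.33 with adjusted p = 0.0705, and with quantile normalization within each group it was 0.73 with adjusted p = 0.0601. Within the 2 scan days the differences were 1.05 and 0.78 at 6 h and 1.37 and 0.46 at 24 h, and AQP6 was higher than in Ctl-C on 4 of 4 and 2 of 2 slides. The 3 intercalated cell markers on the array (mean log2 signal 7.29 to 7.75 in Ctl-C, 6.96 to 8.15 in WI+CS6h-C and 7.32 to 7.67 in WI+CS24h-C) had no call against Ctl-C.

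**Figure D3:**
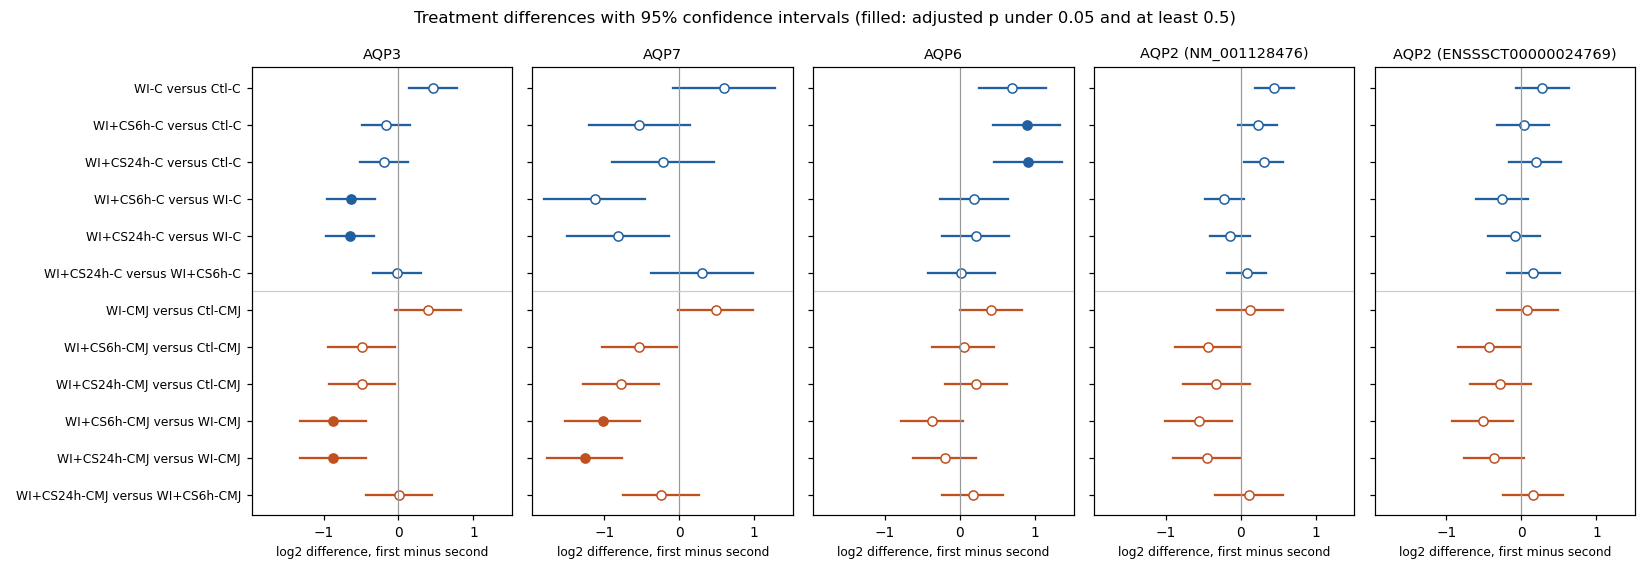
Log2 differences (horizontal axis, first group minus second) of AQP3, AQP7, AQP6 and both AQP2 identifiers in the 6 treatment comparisons of cortex (blue) and of CMJ (orange), with 95% confidence intervals. Filled points are called; they lie at -0.63 to -0.88 for AQP3 and -1.02 and -1.26 for AQP7 against WI, and at 0.89 and 0.91 for AQP6 against Ctl-C.

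AQP2, the vasopressin-regulated channel, was not called under either identifier in any treatment comparison, but its probes did not move together. In CMJ, probe A_72_P705562 read 6.51, 6.73, 6.65, 7.29 and 6.92 in WI-CMJ and 5.90, 6.06, 6.01, 5.55 and 5.58 after 6 h, with no overlap. After 24 h it read 6.14, 6.66, 5.90, 5.58 and 5.45, and 1 array overlapped WI-CMJ. Taken alone, this probe differed from WI-CMJ by -1.0 (SE 0.22, adjusted p = 0.0121) and -0.88 (SE 0.22, adjusted p = 0.0253). Probe A_72_P414263 of the same transcript read 8.77, 9.20, 8.80, 9.01 and 8.78 in WI-CMJ and 8.83, 8.88, 9.04, 8.96 and 8.24 after 6 h, and differed by -0.12 (SE 0.28) at 6 h and -0.03 (SE 0.28) at 24 h. Averaged as NM_001128476 the differences were -0.56 (SE 0.21, adjusted p = 0.168) and -0.45 (SE 0.21, adjusted p = 0.295). The second identifier, ENSSSCT00000024769, with 1 bright probe, read 12.58, 12.55, 12.24, 12.76 and 12.38 in WI-CMJ and 12.13, 11.92, 12.12, 12.10 and 11.69 after 6 h. Its groups did not overlap, and its difference of -0.51 (SE 0.19) had adjusted p = 0.167. The 2 AQP2 identifiers correlated over the 40 arrays at r = 0.85 after group means were taken out and at 0.95 over the 8 group means.

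**Figure D4:**
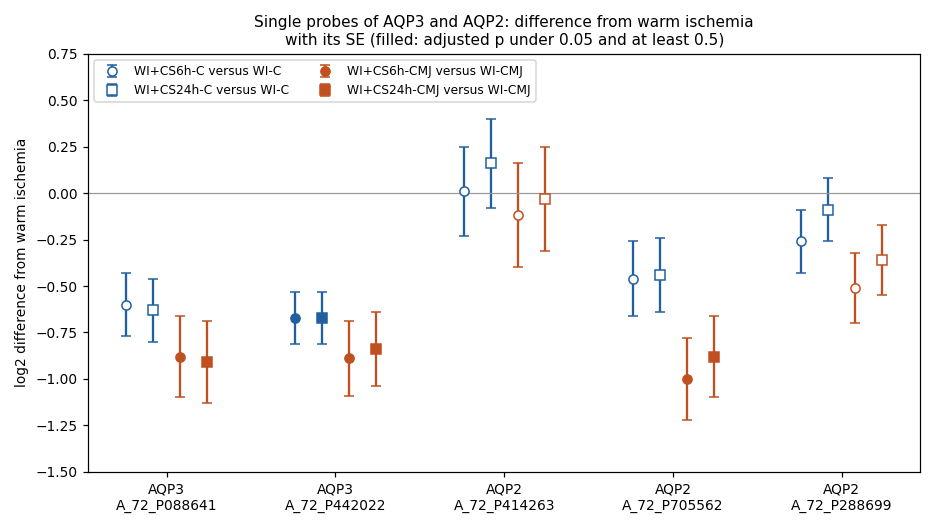
Log2 difference from WI (vertical axis) of the 2 AQP3 probes and 3 AQP2 probes after 6 h (circles) and 24 h (squares) of cold storage in cortex (blue) and CMJ (orange), with its SE. Filled symbols are called; the AQP3 probes lie between -0.60 and -0.91, whereas of the AQP2 probes only A_72_P705562 is called, at -1.0 and -0.88 in CMJ.

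AQP1, AQP5 and AQP11 had no call in the 12 treatment comparisons. AQP1 (NM_214454), the constitutive water channel of the proximal tubule, differed between conditions by -0.19 to 0.10, with 95% confidence limits between -0.64 and 0.56. Its arrays in Ctl-C read 9.5, 9.56, 9.51, 9.52 and 9.40. In all 4 storage groups array 5 was the lowest, at 8.61 and 8.96 in cortex and 8.93 and 8.63 in CMJ, while arrays 1 to 4 of these groups read 9.44 to 10. AQP5 differed by -0.12 to 0.35 and AQP11 by -0.30 to 0.04, with limits of -0.38 to 0.79 and of -0.70 to 0.44. These intervals leave room for differences past 0.5 in either direction for AQP1, upward for AQP5 and downward for AQP11.

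AQP9 (ENSSSCT00000005078), a neutral solute channel best known from liver, was called lower in WI+CS6h-C than in WI-C by -0.65 (SE 0.16, adjusted p = 0.0353). It read 2.47, 2.54, 3.07, 2.59 and 2.83 in WI-C and 1.75, 2.41, 1.90, 2.32 and 1.88 in WI+CS6h-C, where 3 of 5 arrays were well above background. The call rested on probe A_72_P321058, well above background on 1 of 40 arrays, for which no fold is given. Probe A_72_P023416, well above background on 38 of 40 arrays, differed by -0.11 (SE 0.13, adjusted p = 0.726). The call was lost without WI-C 3, 4 or 5 or WI+CS6h-C 1, 3 or 5 (adjusted p of 0.0613 to 0.105), and within the 2 scan days the difference was -0.67 and -0.62. With the slide as a block it was -0.52 with adjusted p = 0.447, on 2 of 2 slides it was lower, and without the 2 dimmest arrays it was -0.54 with adjusted p = 0.198. It was also lost with scaling to the 75th percentile (-0.55, adjusted p = 0.266), with normexp background correction (-0.03), with the replicate number as a block (adjusted p = 0.0671) and in the deposited matrix (-0.07). Other differences of this identifier in cortex were called under some settings. Those from Ctl-C were called with quantile normalization within each group (-0.60 and -0.65 at 6 h and 24 h, adjusted p = 0.0128 and 0.0199), and that at 6 h also without WI+CS6h-C 2 or 4 (adjusted p = 0.0401 and 0.044). That from WI-C at 24 h was called with dim identifiers left out (-0.60, adjusted p = 0.0495) and with the share of spots well above background as a covariate (-0.66, adjusted p = 0.00774).

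Set against all identifiers, the calls were distributed over the comparisons as follows. After warm ischemia alone limma called 0 of 12 aquaporin identifiers in cortex and 0 of 12 in CMJ, where 0.0946% and 0.687% of all identifiers were called. At an unadjusted p under 0.05 there were 3 (AQP2, NM_001128476, AQP3 and AQP6) and 1 (AQP6), against 4.89% and 12.3% of all. Relative to Ctl-C, 1 of 12 was called at 6 h and 1 of 12 at 24 h (AQP6), against 4.02% and 2.5% of all, and the arrays stood apart in 1 of 12 at 24 h (AQP9), against 5.73%. Relative to WI-C, 2 of 12 were called at 6 h (AQP3 and AQP9) and 1 of 12 at 24 h (AQP3), against 1.93% and 1.2%, and arrays stood apart in 3 and 1 of 12, against 3.27% and 3.38%. Relative to Ctl-CMJ, 0 of 12 were called at either time, against 3.19% and 3.65%, with 3 and 2 identifiers at an unadjusted p under 0.05 (16% and 17.7% of all). Relative to WI-CMJ, AQP3 and AQP7 were called, 2 of 12 at 6 h and 2 of 12 at 24 h, against 2.78% and 2.85%. The arrays of both groups stood apart in 4 of 12 identifiers at 6 h and 2 of 12 at 24 h in that tissue, against 5.91% and 4.58% of all identifiers. Between 24 h and 6 h there was no call in cortex or CMJ (0% and 0.00278% of all). At an unadjusted p under 0.05 there were 0 of 12 identifiers in each tissue (3.11% and 3.44% of all). This fit had no term for the kidney, although the same kidneys gave the biopsies of both storage times. With the replicate number as a block, 0 of 35933 identifiers in cortex and 0 of 35931 in CMJ were called. A paired test of the storage times alone was not run. The median difference of the 12 identifiers from WI was -0.03 and -0.08 in cortex and -0.18 and -0.19 in CMJ at 6 h and 24 h, beside medians over all identifiers of 0.03, -0.01, 0.01 and 0.02.

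Between the tissues, AQP7 was the 1 aquaporin called, higher in CMJ than in cortex. Its group means were 7.62 against 8.57 in Ctl, 8.22 against 9.06 in WI, 7.09 against 8.04 in WI+CS6h, and 7.40 against 7.79 in WI+CS24h. Averaged over the 4 conditions the difference was 0.78 (SE 0.14, adjusted p = 0.000709), 1.72-fold, and the call held in all 40 fits that left out 1 array (0.71 to 0.84) and without the 3 arrays with ADIPOQ signal (0.80, adjusted p = 0.00452). Of 12 identifiers 1 was called in this mean, against 1.39% of all. In single conditions the difference was 0.95 (SE 0.29), 0.84, 0.94 and 0.39 for Ctl, WI, WI+CS6h and WI+CS24h, and limma called 0 of 12 in each of them, against 0.312%, 0.671%, 0.0807% and 0% of all identifiers. With the replicate number as a block 3 of 12 were called in Ctl, AQP7 (0.95, adjusted p = 0.035) and both AQP2 identifiers (0.60 and 0.63, adjusted p = 0.035 and 0.0124). Over all identifiers that block called 390 of 35917 in Ctl, beside 112 of 35934 in the main fit. The Ctl difference was also called without Ctl-C 5 for AQP7 (1.19, adjusted p = 0.0423) and AQP6 (0.85, adjusted p = 0.0492), and without Ctl-CMJ 3 for both AQP2 identifiers (0.74 and 0.81, adjusted p = 0.044 and 0.0104). With quantile normalization within each group AQP7 was called in WI+CS6h (0.98, adjusted p = 0.0229) and AQP9 (ENSSSCT00000005078) in WI+CS24h (0.58, adjusted p = 0.044). That setting called 1243 and 739 of all 35934 identifiers in these comparisons, beside 29 and 0 in the main fit. At an unadjusted p under 0.05 there were 5, 3, 1 and 1 identifiers, against 6.09%, 7.18%, 9.57% and 4% of all. In WI the AQP7 arrays of the tissues did not overlap, 1 of 12 identifiers against 3.17% of all. AQP7 was higher in CMJ on 8 of 8 pairs of arrays of 1 condition on 1 slide (0.08 to 1.86), and by 0.89 and 0.68 within the 2 scan days. With normexp background correction the difference was 0.49 with adjusted p = 0.000978, just under the limit of 0.5. In the same mean 1 of 13 proximal tubule markers was called (SLC5A1, 1.22, SE 0.14) and 1 of 8 adipocyte markers (LPL, 0.61, SE 0.17, adjusted p = 0.0307), both higher in CMJ, with list medians of -0.11 and 0.12. Also higher in that mean were 3 of 8 genes of the loop of Henle and medulla (SLC12A1, 0.92, CLDN19, 0.85, and CRYAB, 0.82, list median 0.41) and 1 of 12 striated muscle genes (CKM, 1.01, list median -0.01). ADIPOQ (EF601160) was higher in WI-CMJ than in WI-C by 3.78 (adjusted p = 0.01), and the part of these cell types in the AQP7 difference was not tested.

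Of the other members, AQP2 (ENSSSCT00000024769) was higher in CMJ by 0.32 (SE 0.09, adjusted p = 0.0365), which is under the 0.5 limit, and AQP3 by 0.31 (SE 0.09, adjusted p = 0.0557). In Ctl the values were 0.60 (SE 0.18) and 0.63 (SE 0.18) for the 2 AQP2 identifiers, 0.48 (SE 0.19) for AQP3 and 0.69 (SE 0.21) for AQP6, with adjusted p of 0.219, 0.145, 0.512 and 0.219. AQP11 was lower in CMJ by -0.21 (SE 0.10, adjusted p = 0.287), and AQP1 (NM_214454) differed by 0.05. The effect of treatment was not shown to differ between tissues for any aquaporin in limma: 0 of 12 were called for WI, for WI+CS6h or for WI+CS24h (0% of all identifiers in each), with 0, 2 and 3 at an unadjusted p under 0.05 (1.98%, 5.17% and 2.58% of all). The 2 at 6 h were AQP6 and AQP2 (NM_001128476), the latter at -0.66 (SE 0.25, adjusted p = 0.836). The 3 at 24 h were AQP6 at -0.70 (95% interval -1.29 to -0.10), AQP2 (NM_001128476) at -0.63 (-1.14 to -0.12) and AQP9 (ENSSSCT00000005078) at 0.57 (0.04 to 1.1), each with adjusted p = 1.

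**Figure D5:**
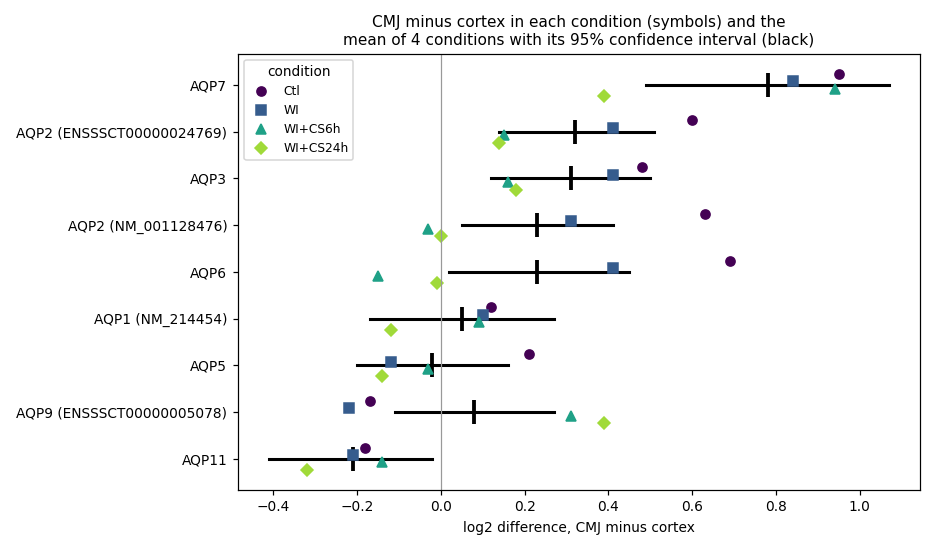
Log2 difference of CMJ minus cortex (horizontal axis) for the 9 aquaporin identifiers that could be compared. AQP9 (ENSSSCT00000005078) averages in a probe well above background on 1 of 40 arrays. Symbols are the 4 conditions and the black line is their mean with its 95% confidence interval; AQP7 lies at 0.78 (0.49 to 1.07) and AQP11 at -0.21 (-0.41 to -0.02), and the AQP2, AQP3 and AQP6 values in Ctl lie to the right of their means.

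The genes that act with the aquaporins were taken from 4 lists. Of 45 genes of vasopressin signaling and water channel traffic, 23 were on the array and 19 well above background. None of the 23 was called in cortex against Ctl (median 0.12 at 6 h and 0.21 at 24 h, beside 0.05 and 0.01 over all identifiers). Against WI, 1 of 23 fell in each tissue at each time, STXBP2, a partner of the syntaxins that fuse vesicles with the membrane: it differed by -0.70 and -0.66 in cortex and by -0.63 and -0.66 in CMJ (SE 0.12 to 0.13). Over all identifiers 1.93% and 1.2% were called in these comparisons of cortex and 2.78% and 2.85% in those of CMJ. RAB11B, of the recycling endosomes that AQP2 passes through, rose in WI-CMJ by 0.91 (SE 0.19, adjusted p = 0.0343) and in WI+CS6h-CMJ by 0.71 (SE 0.19, adjusted p = 0.0414) against Ctl-CMJ. RAB3B passed the threshold in CMJ at 24 h, but was well above background on 0 of 40 arrays. AVPR2, the vasopressin receptor of the collecting duct, was well above background on 40 of 40 arrays, and it differed from Ctl-C by 0.25 (SE 0.21) in WI-C, 0.40 at 6 h and 0.51 at 24 h, with adjusted p of 1, 0.266 and 0.226. From Ctl-CMJ it differed by -0.15 (SE 0.11) in WI-CMJ, -0.18 at 6 h and -0.01 at 24 h, with adjusted p of 0.619, 0.435 and 0.984. CASR, the calcium-sensing receptor, was higher in CMJ in the mean of 4 conditions by 0.52 (SE 0.12, adjusted p = 0.00884).

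Of 20 genes of water, urea and salt transport, 11 were on the array, all of them well above background. SCNN1G, a subunit of the epithelial sodium channel, rose against Ctl by 0.65 at 6 h in cortex and by 0.66 at 6 h and 0.85 at 24 h in CMJ (SE 0.18 in each), and against WI-CMJ by 0.79 and 0.97. HSD11B2, which guards the mineralocorticoid receptor against cortisol, rose against Ctl by 0.59 and 0.57 in cortex and by 0.67 in WI+CS24h-CMJ. Both are also markers of the principal cells that hold AQP2 and AQP3. None of the 11 genes was called lower in any treatment comparison, and their median against WI was 0.24 and 0.23 in cortex and 0.05 at both times in CMJ. KCNJ1, the potassium channel of the thick ascending limb, was higher in Ctl-CMJ than in Ctl-C by 0.69 (SE 0.13), and SLC12A1 is given above.

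Of 6 tonicity genes 3 were on the array, with a median against Ctl-CMJ of -0.01 at 6 h and 0.04 at 24 h. AKR1B1, the aldose reductase that makes sorbitol under high tonicity, was higher in Ctl-CMJ than in Ctl-C by 1.83 (SE 0.29, adjusted p = 0.00122). It fell against Ctl-CMJ by -1.5 at 6 h and -1.4 at 24 h (SE 0.37, adjusted p = 0.0273 and 0.0358). AKR1B1 was not called in WI-CMJ against Ctl-CMJ, nor after storage against WI-CMJ. The summed linear signal of the 3 genes ranged from 256 to 1048 in Ctl-CMJ and from 265 to 356 in WI-CMJ. After storage it ranged from 257 to 316 at 6 h and from 245 to 388 at 24 h in CMJ. HSPA4L, an osmotically induced chaperone, rose in WI+CS6h-CMJ against WI-CMJ by 0.65 (SE 0.12). All 6 genes of glycerol handling were on the array, and 1 of them was called once: MGLL, which releases glycerol from monoglycerides, was lower in WI+CS6h-C than in WI-C by -0.54 (SE 0.13). The median of these 6 genes against WI was -0.06 and -0.10 in cortex and -0.11 and -0.19 in CMJ.

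Markers of cell types were read beside the aquaporins. The mean log2 signal of the 7 principal cell genes on the array ranged from 9.10 to 9.34 in Ctl-C, 9.22 to 9.41 in WI-C, 9.40 to 9.81 after 6 h and 9.19 to 9.95 after 24 h in cortex. The CMJ ranges were 8.92 to 9.10 in Ctl, 8.99 to 9.20 in WI, 9.13 to 9.61 after 6 h and 9.18 to 9.86 after 24 h. Against WI, where AQP3 fell, 0 of 7 were called in cortex and 1 of 7 (SCNN1G) rose in CMJ at each time, and none was called lower; their median difference was 0.24 and 0.26 in cortex and 0.16 and 0.32 in CMJ. Against Ctl-C, where AQP6 rose, 3 of 7 and 2 of 7 rose at 6 h and 24 h, and against Ctl-CMJ 1 of 7 and 3 of 7, beside 4.02%, 2.5%, 3.19% and 3.65% of all identifiers called. GATA3, a transcription factor of the collecting duct, rose by 0.75 and 0.76 in cortex and by 0.83 at 24 h in CMJ.

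Of 13 proximal tubule markers, none was called lower in a treatment comparison, and SLC22A2, an organic cation transporter, was called higher against WI-C by 0.66 and 0.72 and against WI-CMJ at 6 h by 0.57. Against Ctl-C, where AQP6 rose, 2 of 13 were called higher at each time, SLC22A2 (0.72 and 0.78) and the brush border peptidase ANPEP (1.01 and 0.96), with a list median of 0.15 and 0.05. Against Ctl-CMJ 3 of 13 were higher at 6 h (SLC22A8, 0.79, SLC22A2, 0.72, and ANPEP, 0.99) and 1 of 13 at 24 h (SLC22A2, 0.61). Of the genes of the loop of Henle and medulla, the list used to check the tissues in Ctl, 1 of 8 rose against Ctl-C at 6 h (CRYAB, a small heat shock protein, 0.66) and 2 of 8 at 24 h (CRYAB, 0.83, and CLDN19, a claudin of the thick ascending limb, 0.87), against 4.02% and 2.5% of all identifiers, with a list median of 0.33 and 0.41 beside 0.05 and 0.01 over all identifiers. Their mean log2 signal ranged from 9.25 to 9.67 in Ctl-C, 9.38 to 9.64 in WI-C, 9.58 to 9.95 after 6 h and 9.64 to 9.95 after 24 h in cortex, and from 9.68 to 10.29 in Ctl-CMJ. None of the 8 was called in the other treatment comparisons. In the comparisons of cortex in which AQP3 and AQP6 moved, the muscle creatine kinase CKM (AK398294) rose as well, by 2.14 and 2.33 against Ctl-C and by 2.41 and 2.60 against WI-C, 1 of 12 striated muscle genes against WI-C and, with MYLPF, 2 of 12 against Ctl-C. NES, a filament protein of podocytes and 1 of 3 glomerular genes, rose against WI by 1.17 and 1.05 in cortex and 1.13 and 1.15 in CMJ by ENSSSCT00000031509, and no other NES identifier was called against WI. KDR, 1 of 6 endothelial genes, rose against Ctl-CMJ at both times, LPL, 1 of 8 adipocyte genes, rose in WI+CS6h-C against Ctl-C by 1.06, and 0 of 2 erythrocyte and 0 of 10 leukocyte genes were called in any comparison. Between tissues, SLC26A4 and RHCG, 2 of 3 intercalated cell genes, were lower in CMJ by -1.55 and -0.50 in the mean of 4 conditions, and WT1, of podocytes, by -0.52. The part of cell composition in the AQP3, AQP6 and AQP7 values was not tested.

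Among 8168 identifiers with another gene symbol, those most like the members over the 40 arrays after group means were taken out are given as a description. For AQP3 they were TFAP2B (r = 0.859), FAXDC2 (0.855) and EPHX3 (0.854), and for AQP6 they were ANO10 (0.859), EPHX3 (0.836) and FAXDC2 (0.799). AQP3 and AQP6 thus shared 2 of their 3, and they correlated with each other at r = 0.80. AQP7 was most like TMEM171 (0.833), CNPPD1 (0.793) and EPHA2 (0.781), AQP1 (NM_214454) like PC (0.906), PCK2 (0.894) and INSR (0.892), and AQP11 like HPX (0.895), NTAN1 (0.881) and C4A (0.876). AQP2 (ENSSSCT00000024769) was most like EFHD1 (0.832), MUC20 (0.79) and FBXO32 (0.786), AQP2 (NM_001128476) like SLC4A11 (0.829), TMEM173 (0.821) and ASAP1 (0.789), and AQP5 like PAQR4 (0.813), CACNG1 (0.786) and LINGO1 (0.775). Over the 8 group means AQP3 was most like OSBPL5 (0.989), SMAD1 (0.989) and NOD1 (0.988). The group means of AQP3 and AQP7, which are chromosomal neighbors, correlated at r = 0.94 and their deviations from the group means at 0.60. The neighbors AQP5 and AQP6 gave 0.58 and 0.09. The neighbors AQP2 and AQP5 gave -0.11 and -0.24 for ENSSSCT00000024769 and 0.03 and -0.29 for NM_001128476. AQP2 (ENSSSCT00000024769) and AQP7, which are not neighbors, gave 0.89 and -0.08. AQP2 (ENSSSCT00000024769) and AQP11 gave -0.64 in the deviations. The values of a pair of genes were read on the same arrays and share their RNA, labeling and normalization.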

How the data were processed

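Total RNA of 40 biopsies was hybridized to 1-color (Cy3) Agilent porcine arrays. Per the file headers, the intensity values that the authors deposited were extracted with Agilent Feature Extraction 11.5.1.1, which subtracts local background and gives each of 43803 non-control spots a processed signal. The log2 values of the deposited series matrix, which the authors normalized by quantiles with limma, served only as an alternative. Here log2 of the processed signal was used, outlier spots (10 to 85 per array) were set to missing, the 40 arrays were quantile normalized, and spots were averaged by identifier. limma 3.58.1 in R 4.3.3 was fitted within each tissue (20 arrays) and over both (40 arrays), with Benjamini-Hochberg adjustment over 35939 identifiers in cortex, 35938 in CMJ and 35934 over both. A call needed an adjusted p under 0.05 and a log2 difference of at least 0.5, the limits of the study's methods. The scripts were tested on simulated data, and the number of arrays limits the precision.

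Named genes were all members, up to 4 called genes per list and comparison by smallest p, and for each member above background on at least 20 arrays the 3 identifiers with a symbol that correlated most with it. Some list genes and single probes were named after their values were seen. The identifiers most like AQP7 over the group means are not reported here. Members, lists (vasopressin signaling, transport, tonicity, glycerol and 10 sets of cell type markers) and tests were chosen with earlier results of these data known. Same-numbered arrays deviated together (r over 0.1 in 5 of 5 pairs) between cortex and CMJ of WI (0.114 to 0.418), WI+CS6h (0.164 to 0.627) and WI+CS24h (0.223 to 0.657), and between 6 h and 24 h in CMJ (0.591 to 0.842). They did so in 3 of 5 pairs between the tissues in Ctl and between 6 h and 24 h in cortex, and in 0 to 3 of 5 pairs between Ctl and WI and between WI and WI+CS6h. The study's methods describe independent brother pigs, the labels give condition, tissue and a number, and samples of 1 kidney are not independent. The 40 arrays lay on 10 slides, each with 4 arrays of 4 groups, and 8 slides held both tissues. They were scanned on 2 days, and each day had arrays of all 8 groups.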

Additional observations from a re-analysis of the deposited data

Results flagged for a closer look

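In 10 of 96 sets of 5 arrays (an identifier in a group) 1 array stood far from the other four by Dixon's ratio, and chance gives about 1 in 20. Among identifiers above background, AQP7 read 8.58 on Ctl-C 5, with the next array at 7.53, and AQP6 read 6.90 on WI-CMJ 4, with the next at 6.21. On WI+CS24h-C 5, AQP1 (NM_214454) read 8.96 and AQP2 (NM_001128476) 7.04, both the lowest of their group, with the next arrays at 9.65 and 7.44. AQP9 (ENSSSCT00000005078) read 2.84 on Ctl-C 1 (next 2.5), and the saturated AQP1 probe of AK238030 read 16.45 on WI-CMJ 4 (next 16.31). The others lay below background: AQP4 at 0.07 on Ctl-C 2 and 1.36 on WI-CMJ 5, and AQP9 (NM_001112684) at 0.75 on Ctl-CMJ 2 and 1.1 on WI-CMJ 4. No cause was tested.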

How the results depend on the processing

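Of the 5 calls among treatment comparisons in cortex, 2 were left with scaling to the 75th percentile, 0 with normexp background correction, 2 with the replicate number as a block, 1 with the slide as a block and 2 without the 2 dimmest arrays. With quantile normalization within each group there were 6, of which 4 were gained (AQP7 once and AQP9 3 times) and 3 of the 5 were lost (AQP3 at both times and AQP6 at 24 h). Of the AQP9 gains 1 was of NM_001112684, between 24 h and 6 h, well above background on 0 of 40 arrays. Over all identifiers that setting took the calls against Ctl-C from 1445 to 3062 at 6 h and from 900 to 1440 at 24 h. Against WI-C they went from 692 to 1923 and from 433 to 519, and between 24 h and 6 h from 0 to 1152. Leaving out 1 array gave 2 to 6. Of the 4 calls in CMJ, 1 was left with the slide as a block and 0 without the 3 arrays with ADIPOQ signal, and leaving out 1 array gave 1 to 5. The 1 call between tissues became 3 with quantile normalization within each group, 0 with normexp and 4 with the replicate number as a block. It became 1 to 3 when 1 array was left out. Over all identifiers the calls in the mean of 4 conditions went from 499 to 626, 61 and 618 in these settings. For Ctl they went from 112 to 390 with the replicate block. With quantile normalization within each group they went from 29 to 1243 for WI+CS6h and from 0 to 739 for WI+CS24h. The calls gained with the replicate block were the Ctl difference of AQP2 (0.60 and 0.63, adjusted p = 0.035 and 0.0124 for ENSSSCT00000024769 and NM_001128476) and of AQP7 (0.95, adjusted p = 0.035), and those lost were AQP3 in cortex at 6 h (adjusted p = 0.0628) and 24 h (0.0748) and AQP9 (ENSSSCT00000005078, 0.0671). The replicate block changed no other aquaporin call. Within a tissue it joined the same-numbered arrays of Ctl, WI and storage, which came from different kidneys. Between tissues it joined the same-numbered arrays of a condition, with both storage times together. No interaction was called under any setting. Among the 48 values of single comparisons with an unadjusted p under 0.05, the direction turned once, for AQP9 (ENSSSCT00000005078) between WI+CS24h-CMJ and WI+CS24h-C, from 0.39 to -0.03 with the brightest probe alone. The same 48 values under each of the 8 planned settings that kept all arrays gave 349 that kept their direction and their side of the limits, 24 that lost a call and 10 that gained one. Further settings were added after the data were seen: the scan day as a block, which left all counts of calls as they were, the dimmest arrays left out, the share of spots above background as a covariate, and the arrays with ADIPOQ signal left out. The causes were not tested. Signal over background limits AQP4 and AQP9, and saturation limits the bright AQP1 probe.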
